A study of Mus musculus with 12 samples.

Results

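Sensory ganglia from mice with a spinal injury and no drug were described from 6 of the 12 samples in the series, 3 RNA libraries and 3 libraries of open chromatin (ATAC-seq). The 6 were chosen by their label as vehicle samples, and no comparison with the drug-treated samples was made. All came from C57BL/6 mice aged 6 to 8 weeks with a cut through the dorsal columns (dorsal column axotomy, DCA), the tracts of the spinal cord that carry sensory axons. The mice received intraperitoneal vehicle, a mixture of 3.2% Tween80, 20% PEG300 and 4% DMSO, once at surgery and once 2 h before the animals were killed at 24 h. Dorsal root ganglia of lumbar levels 4 to 6, whose neurons send axons into the sciatic nerve, were pooled from 2 mice for each RNA library and from 1 mouse for each ATAC library, and the triplicates are described as biological. No uninjured ganglia are among these samples, so none of the values below shows what the injury changed. Each RNA library has its own read counts, while the open chromatin was deposited as 1 list of combined replicates and therefore has no replicate error.

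A dorsal root ganglion holds the cell bodies of sensory neurons, each wrapped by satellite glia, together with Schwann cells along the axons, fibroblasts, vessels and resident macrophages. One branch of each neuron runs to the skin, muscle or viscera and the other enters the spinal cord, where the large fibres for touch and position ascend in the dorsal columns that this injury cuts. Tn5 transposase, used in ATAC-seq, inserts preferentially where DNA is not wrapped tightly around nucleosomes, so regions rich in insertions mark accessible promoters and enhancers. In bulk tissue a lower level of a gene can come from fewer cells of a type or from less RNA per cell, and these cannot be told apart.

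The 3 RNA libraries held 45077599, 60370523 and 39148369 reads assigned to 44345 genes, and levels are given as the number of these reads per 1000000 (CPM). In the 3 libraries 21895, 22505 and 21525 genes had a read, and 14118, 14106 and 14120 reached 1 CPM. A gene with 0 reads may lie at up to 0.0497 to 0.0766 CPM, the worth of 3 reads in each library, a limit that covers counting error only. The libraries were close: Spearman's rho between pairs was 0.996 to 0.997 across genes, and the biological coefficient of variation, the spread beyond counting error that edgeR estimates, was 4.41% over 16089 genes. Of the 9934 genes at 10 CPM or more, 96.3% had a coefficient of variation (CV, the SD over the mean) under 10%. As a check for a library deposited more than once, the counts of each pair were compared, and the chi-square per degree of freedom of 6.78 to 8.26 left no pair within sampling noise.

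Reads were spread over many genes, and neuronal structure led. The top gene took 0.780% of reads, the top 10 took 4.40%, and the top 25 took 7.85%, 8.26% and 8.48% in the 3 libraries (8.20% ± 0.318, SD, n = 3). Some 202 genes made up 25% of all reads, 1009 made up 50% and 5963 made up 90%. At the other end, 20079 genes (45.3%) had no read in any library. CPM is a share of reads and is not divided by transcript length, so the order below ranks genes by reads and not by molecules.

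Among the 25 genes with most reads, 7 were from the list of axonal cytoskeleton genes and 4 were encoded by the mitochondrial genome. Nefl, the light neurofilament subunit, stood at 6061, 6313 and 6297 CPM. Nefm, the medium subunit, stood at 4486, 4816 and 4950 CPM, and Nefh, the heavy subunit, at 2824, 3141 and 2909 CPM. The 3 neurofilament subunits thus took 0.622%, 0.475% and 0.296% of all reads, with CVs of 2.26%, 5.02% and 5.55%. Map1b, a microtubule-associated protein of growing and mature axons, had 4122, 4367 and 4106 CPM. The tubulins Tuba1a and Tubb3 averaged 2944 and 2853 CPM, and the peripheral neurofilament protein peripherin, Prph, 2117 CPM. The tubulin values carry some uncertainty because these genes are close in sequence and reads of one can align to another.

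Other genes near the top served neuronal protein turnover, protein folding and lipid. Ndrg4, an NDRG family gene of the nervous system, had 3536, 3500 and 3501 CPM. Uchl1, the neuronal ubiquitin hydrolase also known as PGP9.5, averaged 2559 CPM. The chaperones Hsp90ab1 and Hspa8 averaged 2830 and 2108 CPM. Apoe, the apolipoprotein that satellite glia secrete, averaged 2220 CPM, and Scd2, a fatty acid desaturase, 2109 CPM.

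**Figure D1:**
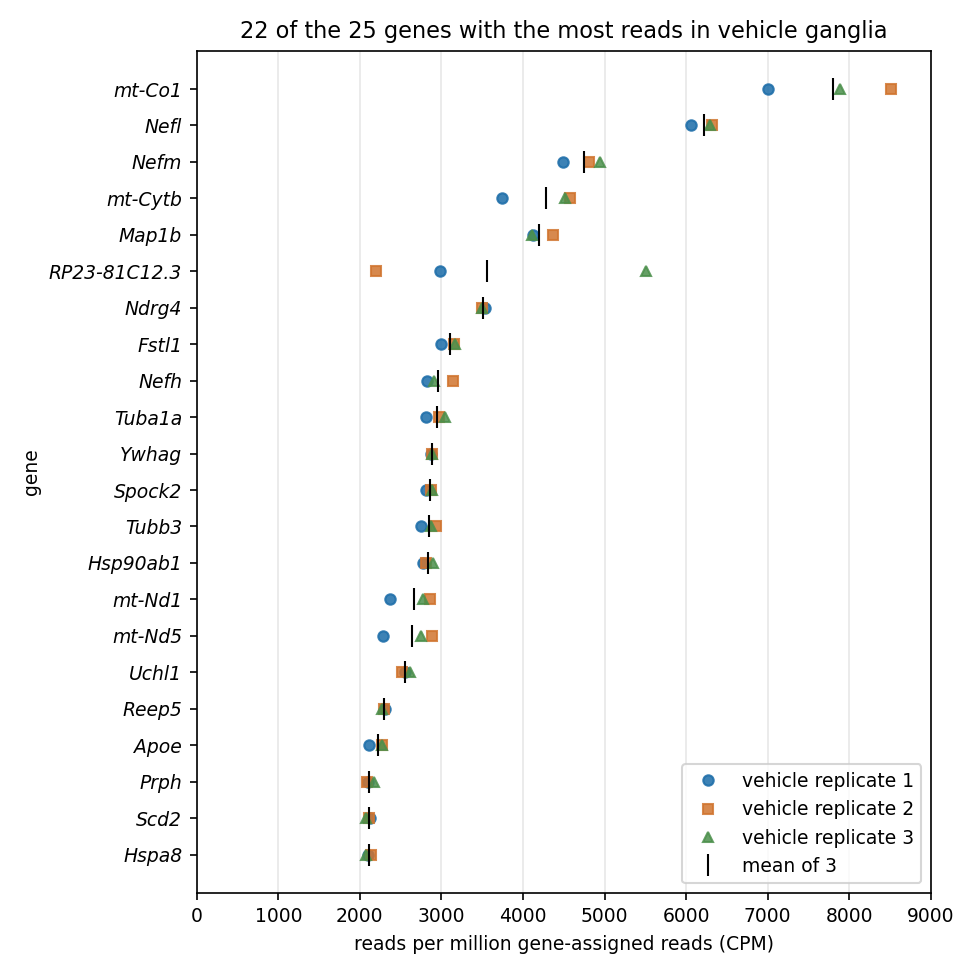
Reads in CPM (horizontal axis, linear from 0) of 22 of the 25 genes with most reads (vertical axis) in the 3 vehicle RNA libraries, 1 marker per library, with a tick at the mean. For 15 of the 22 genes drawn the CV was under 5%; mt-Co1 spread from 6999 to 8508 CPM and the provisional gene RP23-81C12.3 from 2197 to 5512 CPM.

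In the top 25, 6 genes had a CV of 9% or more, and 4 of these were mitochondrial. Mt-Co1, a core subunit of cytochrome c oxidase, had 6999, 8508 and 7892 CPM. Mt-Cytb, the cytochrome b of complex III, had 3737, 4581 and 4514 CPM, so replicate 1 was the lowest for both. The provisional gene RP23-81C12.3, known here only by a clone name and absent from the RefSeq table of gene positions, had 2978, 2197 and 5512 CPM, a CV of 48.7%. Of the 13 protein-coding mitochondrial genes, 6 lay above 1000 CPM, mt-Nd6 averaged 36.8 CPM, and 6 were under 1 CPM. Those 6 were mt-Co2 (0.0602 CPM), mt-Atp8 (0.0170 CPM), mt-Atp6 (0.0488 CPM), mt-Co3 (0.0810 CPM), mt-Nd3 (0.232 CPM) and mt-Nd4l (0 reads). On the mitochondrial chromosome these genes follow one another between mt-Co1 and mt-Nd4, and the 2 flanking genes averaged 7799 and 1569 CPM. The 6 genes encode subunits of cytochrome c oxidase (mt-Co2 and mt-Co3), ATP synthase (mt-Atp6 and mt-Atp8) and complex I (mt-Nd3 and mt-Nd4l), and the deposited counts give them almost no reads. The count files set aside 12.4% to 13.1% of reads as not uniquely aligned, and the part of those reads in this gap was not tested. The mitochondrial sum of 18242, 22382 and 21351 CPM (2.07% of reads) is therefore the sum of the genes that received reads.

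By gene list, axonal cytoskeleton genes took most reads. The 25 genes summed to 38378, 39807 and 39400 CPM, 3.92% of all reads, and every one was at or above 1 CPM in all libraries. Besides the leaders, the list held Stmn2, a microtubule-destabilising protein of axons (1911 CPM on average), and the motors Kif5a (1418 CPM) and Kif1a (1345 CPM), which carry cargo outward along axons. Ina, alpha-internexin, was lower at 56.5 CPM. The 18 pan-sensory neuron genes summed to 13653, 13665 and 13875 CPM, led after Uchl1 by Sncg, gamma-synuclein (1734 CPM), and Atp1b1, a sodium pump beta subunit (1551 CPM). All 18 passed 1 CPM in every library, as did all 16 satellite glial genes and all 18 myelinating Schwann cell genes. Over all genes, 13857 of 44345 did. All 16 endothelial genes and all 18 measured macrophage genes passed too, so passing does not single out neurons or glia.

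Energy, translation and lipid genes came next. The 92 nuclear genes of oxidative phosphorylation summed to 11093 ± 135 CPM (SD, n = 3), led by the ATP synthase subunits Atp5b (1261 CPM) and Atp5a1 (833 CPM). The 88 cytosolic ribosomal protein genes summed to 10858 ± 314 CPM, a sum that is uncertain because these genes have many processed copies in the genome. The 15 glycolytic genes summed to 9359 ± 151 CPM, with the aldolase Aldoa at 1923 CPM and the pyruvate kinase Pkm at 1683 CPM. The 15 measured translation factors summed to 8258 ± 67.1 CPM. The 16 genes of iron and lipid handling summed to 12742 ± 71.1 CPM and included Psap, the lysosomal saposin precursor (1584 CPM), and Fth1, the ferritin heavy chain (1533 CPM).

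Listed genes of neuron subtypes differed widely in level. The 22 nociceptor genes, of neurons that sense pain and itch, summed to 5892, 5879 and 5815 CPM. Calca, which encodes the neuropeptide CGRP, had 1370, 1450 and 1391 CPM. Ret, the receptor for GDNF family ligands, averaged 933 CPM, and the sodium channels Scn10a and Scn11a, Nav1.8 and Nav1.9, 886 and 421 CPM. The heat channel Trpv1 averaged 180 CPM, and the cold channel Trpm8 37.7 CPM. Sst, somatostatin, of a small itch population, was the lowest at 1.49, 1.04 and 1.40 CPM. The 16 genes of large-diameter neurons summed to 4280, 4600 and 4326 CPM. Nefh, also counted in the axonal list, made up most of that sum. The osteopontin gene Spp1 averaged 224 CPM and the BDNF receptor Ntrk2 219 CPM. The lists are of unequal size, and their sums do not measure numbers of neurons.

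**Figure D2:**
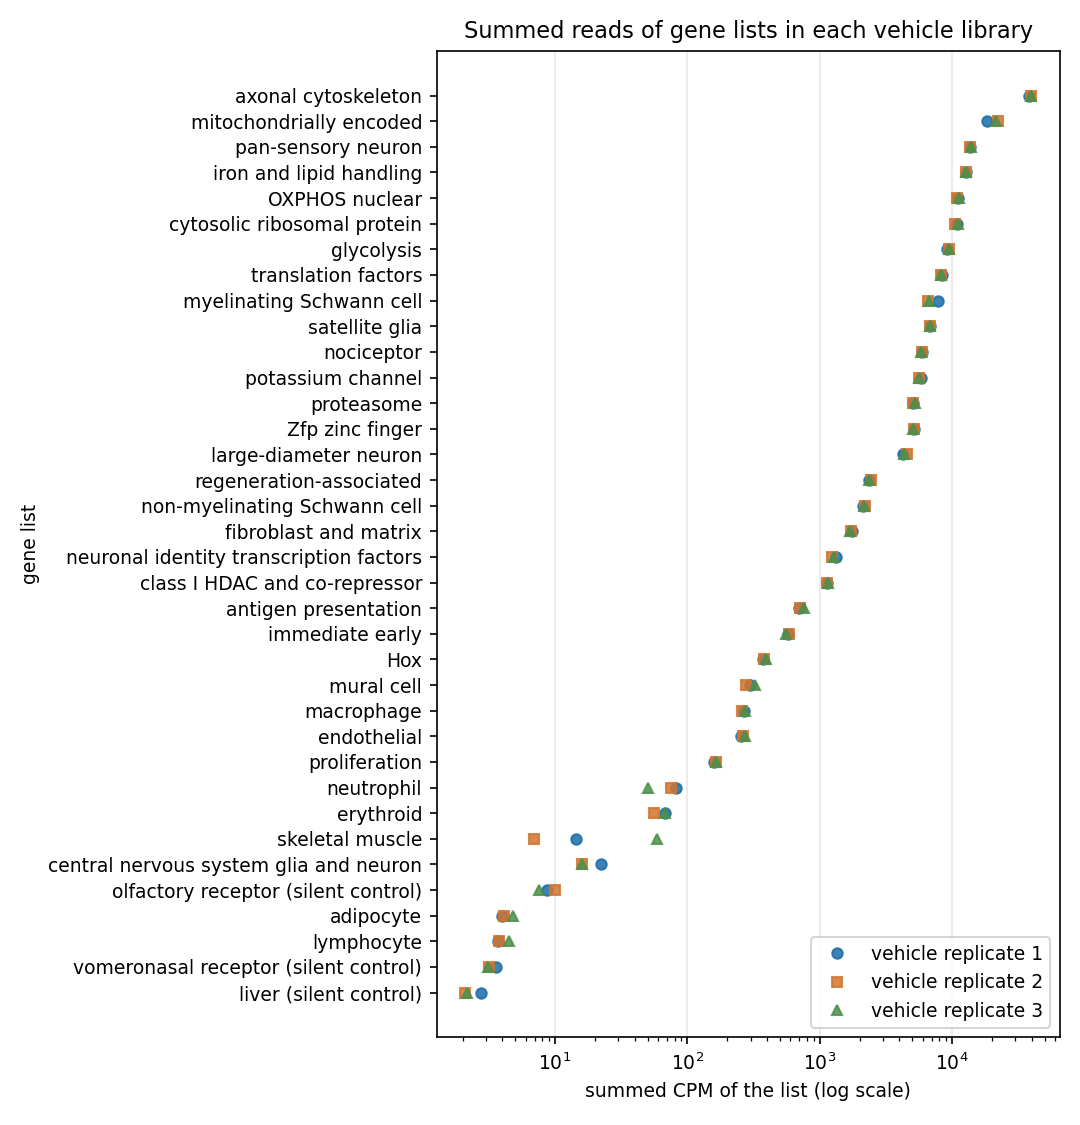
Summed CPM (horizontal axis, log scale) of each gene list (vertical axis) in the 3 vehicle RNA libraries, 1 marker per library, for lists that sum to over 1 CPM. Axonal cytoskeleton genes lay at the top near 39195 CPM, and the 3 libraries separated most for the skeletal muscle list, at 6.91 to 59.0 CPM.

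The median CV between libraries was 8.95% in the myelinating Schwann cell list, whose median gene lay at 123 CPM. In neuronal lists it was 2.19% for pan-sensory genes (median gene at 536 CPM), 4.58% for large-diameter neurons (82.8 CPM), 5.92% for neuronal identity transcription factors (27.4 CPM) and 6.13% for nociceptors (149.7 CPM). The 18 myelinating Schwann cell genes summed to 7793 CPM in replicate 1 and to 6548 and 6666 CPM in the others. Mbp, myelin basic protein, had 1413, 1070 and 1119 CPM, and Pmp22, a tetraspan protein of compact myelin, 1613, 1432 and 1483 CPM. S100b, a calcium-binding protein of Schwann cells and satellite glia, did not share this order, at 642, 666 and 654 CPM. Nor did Sox10 (70.8, 82.5 and 80.7 CPM) and Pmp2 (18.9, 23.4 and 18.3 CPM), while the remaining genes of the list were highest in replicate 1. The satellite glial list summed to 6861, 6757 and 6812 CPM, led after Apoe by the cholesterol synthesis gene Hmgcs1 (926 CPM) and the lipocalin Apod, at 877, 698 and 795 CPM. The 10 genes of non-myelinating Schwann cells summed to 2170 ± 36.3 CPM, led by the neurotrophin receptor Ngfr (860 CPM), which many sensory neurons also express.

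Lists of vascular, immune and connective cell genes summed to fewer reads. The 18 fibroblast and matrix genes summed to 1717 ± 24.5 CPM, with the intermediate filament gene Vim at 540 CPM and the proteoglycan gene Dcn at 316 CPM. Endothelial genes summed to 253, 264 and 274 CPM, mural cell genes to 295, 275 and 322 CPM, and macrophage genes to 270, 259 and 274 CPM. Of the mural sum, Rgs5, a pericyte marker, made up 199 CPM. Neutrophil genes summed to 81.9, 74.7 and 50.4 CPM, with the calgranulins S100a9 (21.0, 18.9 and 12.0 CPM) and S100a8 (15.3, 13.5 and 8.94 CPM) in the same order. The 12 lymphocyte genes summed to 3.98 ± 0.430 CPM, and 1 of them passed 1 CPM in every library, Cd79a of the B cell receptor.

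Lists of other tissues and of blood cells held few reads. The 5 measured erythroid genes summed to 67.5, 56.3 and 67.4 CPM. The 9 skeletal muscle genes summed to 14.3, 6.91 and 59.0 CPM, so replicate 3 held most of that signal, and the mean of 26.8 CPM was 10.6 CPM without it. Acta1, skeletal actin, had 2.55, 1.79 and 11.2 CPM. In replicate 3 the smooth muscle actin Acta2 was also highest, at 18.9 CPM against 13.1 and 9.46 CPM. The central nervous system list summed to 22.2, 15.9 and 15.9 CPM, highest in replicate 1. Its oligodendrocyte gene Mog lay at 0.0214 CPM on average and Olig1 at 0.288, 0.0166 and 0.0255 CPM. The water channel Aqp4 (14.6, 10.8 and 11.5 CPM) and the glutamate transporter Slc1a2 (7.32, 5.05 and 4.29 CPM) of this list were detected. Of 1099 olfactory receptor genes 1021 had no read, as had 299 of 325 vomeronasal receptor genes and 53 of 55 keratin-associated protein genes. Over all 44345 genes, 20079 had none. Olfr920 was the only olfactory receptor gene above 1 CPM in all libraries, at 5.30, 5.96 and 4.11 CPM.

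Genes linked to axon regeneration were present at very unequal levels. This list holds genes known to rise in these neurons after a peripheral nerve is cut. Here 20 of 26 were at or above 1 CPM in all libraries, against 13857 of 44345 over all genes. The list summed to 2366, 2460 and 2376 CPM. The transcription factor Stat3 (437 CPM on average), the zinc finger gene Klf7 (431 CPM), the beta-tubulin Tubb2b (372 CPM) and the growth cone protein Basp1 (241 CPM) led. The activator protein 1 member Jun stood at 186, 201 and 194 CPM, and the growth cone gene Gap43 at 171, 203 and 207 CPM. Atf3, an injury-induced transcription factor, had 48.5, 52.9 and 42.0 CPM. Sox11 had 3.95, 4.44 and 4.52 CPM, and Sprr1a, which marks neurons after nerve injury, 2.86, 4.64 and 2.20 CPM. The neuropeptides Npy (0.646 CPM) and Vip (0.0424 CPM) and the cytokine genes Il6 (0.479 CPM) and Lif (0.467 CPM) stayed under 1 CPM.

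Transcription factors of sensory neuron identity summed to 1282 ± 36.2 CPM over 19 genes. Pou4f1, or Brn3a, which sets sensory neuron fate, averaged 263 CPM, and Prdm12, needed for nociceptor development, 212 CPM. The embryonic factors Neurog1 and Neurog2, which act in neuron precursors, were at 0.289 and 0.109 CPM. The 14 class I deacetylases and co-repressor genes summed to 1144.5 ± 6.46 CPM, with Hdac2 at 113 CPM, Hdac3 at 75.2 CPM, Hdac1 at 26.9 CPM and Hdac8 at 7.48 CPM.

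Few well-read genes varied widely between libraries. Of the 9934 genes at 10 CPM or more, 6 had a CV over 30%, among them RP23-81C12.3 and the smooth muscle actin gene Acta2 (34.5%). Bc1, a small neuronal RNA made by RNA polymerase III, had 63.0, 164 and 224 CPM, a CV of 54.1%. Chrna3, a nicotinic receptor subunit gene, was high in replicate 3, at 11.6, 11.4 and 20.4 CPM (CV 35.7%). Next in CV among genes without a provisional symbol, at 27.5% to 29.5%, came 4 others. The interferon-induced genes Ifit3 (12.4, 12.2 and 19.8 CPM) and Gbp2 (8.83, 9.87 and 14.6 CPM) were also highest in that library, as was the muscle tropomyosin gene Tpm2 (9.03, 8.08 and 13.5 CPM). Ddn, a dendritic protein gene, was highest in replicate 1, at 20.5 CPM against 11.8 and 14.8 CPM.

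The accessible regions were numerous and mostly narrow. The vehicle list held 277369 entries, which merged into 177906 regions that cover 92.2 Mb. Their median width was 422.5 bp (quartiles 289 and 635 bp), and the widest spanned 4444 bp. A region was assigned to a gene when it overlapped by at least 1 bp a window reaching 1 kb to each side of either end of the gene in RefSeq (GRCm38.p6, the assembly of mm10). By that rule 14.0% of regions lay at gene ends, 55.1% elsewhere inside genes and 30.9% outside. Regions at gene ends were wider, with a median of 721 bp against 407 bp inside genes and 389 bp outside. Of 31451 genes with a position, 17987 (57.2%) had a region at an end.

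Presence of a region climbed with the share of reads and then levelled off. A region lay at an end of 17.2% of genes with no reads, 40.1% of genes under 0.1 CPM, 61.9% at 0.1 to 1 CPM, 84.7% at 1 to 10 CPM and 94.1% at 10 to 100 CPM. It reached 95.8% at 100 to 1000 CPM and 96.2% of the 80 genes at 1000 CPM or more. The classes also differed in gene span. Of the 10388 genes with no reads, 6201 lay in the shortest quartile of span, up to 1139 bp. In that quartile presence was 15.8% with no reads, 30.7% at 0.1 to 1 CPM and 43.4% at 1 to 10 CPM. In the third quartile, 8978 to 30104 bp, it was 19.8%, 69.6% and 86.6%. The part of span in the whole-set shares was not tested. Of the 13730 genes with a position at 1 CPM or more, 12589 (91.7%) had a region, and each RNA library taken alone gave 91.6% to 91.7%. At the start of the gene, presence went from 12.4% with no reads to 93.7% at 100 to 1000 CPM, and was 88.9% of the 54 genes at 1000 CPM or more. At the other end it went from 9.85% to 44.2%, and was 55.6% at 1000 CPM or more. These shares come from 18835 genes whose strand is given by the promoter table.

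**Figure D3:**
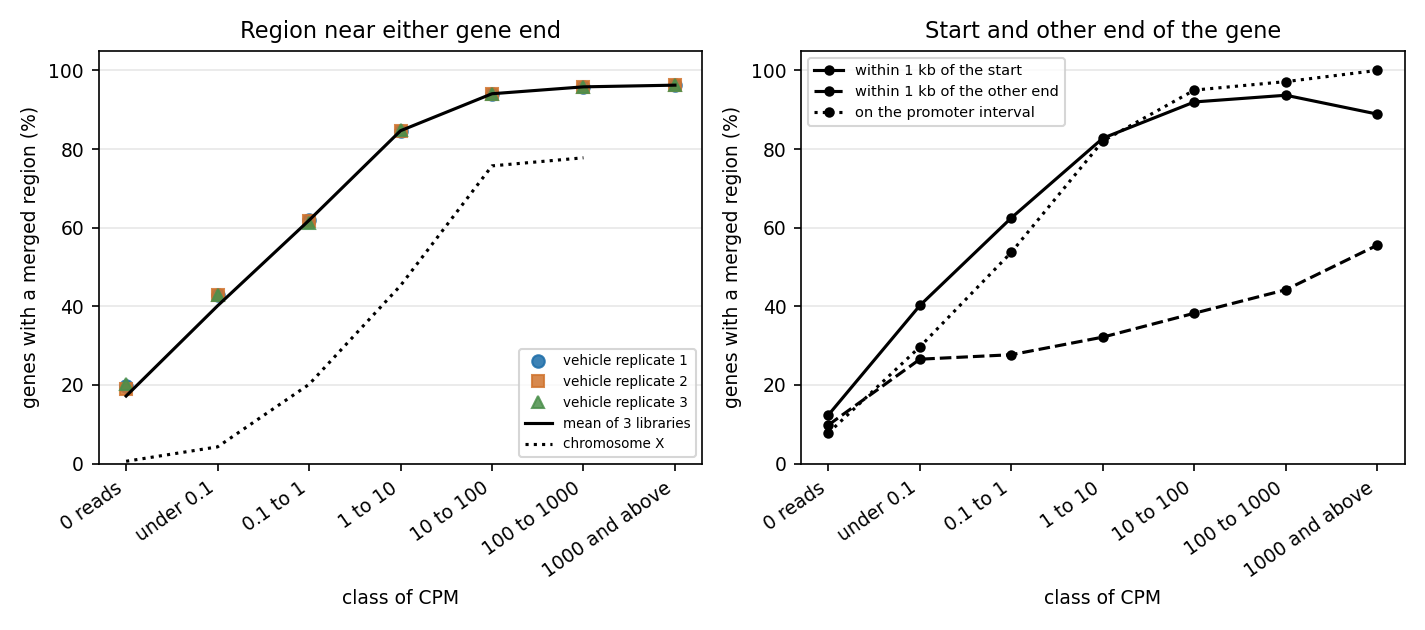
Share of genes with a merged region (vertical axis, %) in classes of CPM (horizontal axis). At left, at either gene end, with markers for each RNA library, a line for the mean of 3 and a dotted line for chromosome X, whose class of 1000 CPM and above has 1 gene and is not drawn; at right, at the start, at the other end and on the promoter interval of 300 bases, which rose from 7.81% of genes with no reads to 97.1% at 100 to 1000 CPM. At 1000 CPM and above the promoter share was 100%.

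Nearly all of the leading genes had an accessible end. Of the 20 top genes with a position, 19 had 1 to 5 regions, and their widest regions ran from 628 bp at Apoe to 2631 bp at Hsp90ab1, with a median of 1613 bp. At Map1b (chr13:99421464-99516602) the single region of 2234 bp lay over the start, at chr13:99514903-99517136, and 36 regions touched the gene or the 1 kb beside it. Nefl (chr14:68083863-68089095) had a region of 1657 bp at chr14:68087886-68089542, and Nefh (chr11:4938754-4948064) one of 2134 bp at chr11:4937289-4939422. Uchl1 had 5 regions at its ends, the most of these genes. Reep5, which shapes tubular endoplasmic reticulum, was the exception, with 2305, 2298 and 2271 CPM and no region at its ends, though 9 lay within the gene or 1 kb of it.

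Lists differed in how many members had an accessible end, to be read against 57.2% of all genes and 91.7% of those at 1 CPM or more. All 18 pan-sensory neuron genes had a region, as did all 15 glycolytic genes, all 15 translation factors, all 14 antigen presentation genes and all 29 proliferation genes. Of the 22 nociceptor genes 16 (72.7%) had one. The 6 without were the CGRP-beta gene Calcb, the cold channel gene Trpm8, the itch receptor genes Mrgpra3, Mrgprb4 and Mrgprb5, and Sst. Calcb and Trpm8 had 3 and 8 regions elsewhere in the gene or its flanks, whereas the other 4, at 1.31 to 8.45 CPM, had 0. The nociceptor list was not alone in its low share. The share was 64.3% in the neutrophil list, 72.2% in the macrophage list, 75.0% in the endothelial list and 77.8% in the fibroblast and matrix list. At the silent end, 6.01% of olfactory receptor genes, 1.24% of vomeronasal receptor genes and 16.7% of keratin-associated protein genes had a region. Olfr920 was among them, with a region of 1364 bp.

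Immediate early genes differed widely in the width of their accessible ends. All 16 immediate early genes, which switch on within minutes of stimulation, had a region, with a median widest region of 1499.5 bp against 1026 bp over all genes with a region. Fos stood at 6.43 CPM with a region of 1354 bp, Egr1 at 8.40 CPM with one of 2281 bp, and Fosl1 at 0.428 CPM with one of 1575 bp. Other members at low levels were narrower, with 720 bp at Fosb (0.805 CPM), 587 bp at Egr3 (1.58 CPM) and 557 bp at Arc (3.72 CPM). Atf3 had 2 regions, the widest of 1661 bp, and the regeneration-associated gene Sox11 1 region of 1942 bp. Lif, of the same list, had a region of 1369 bp at 0.467 CPM. By contrast Gap43, at 194 CPM, had a region of 261 bp, and Sprr1a one of 240 bp.

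Wider regions went with more reads, with a large overlap between classes. The median widest region at the ends was 578 bp in genes with no reads, 654 bp under 0.1 CPM, 809 bp at 0.1 to 1 CPM, 1006 bp at 1 to 10 CPM, 1172 bp at 10 to 100 CPM and 1333 bp at 1000 CPM or more. Read the other way, 31.5% of genes whose widest region was at most 500 bp were at 1 CPM or more, 62.8% at 500 to 1000 bp, 83.5% at 1000 to 1500 bp and 89.7% above 2000 bp. Across the 16202 genes with a region and a read, Spearman's rho between mean CPM and width was 0.354. It fell to 0.189 among the 12589 genes at 1 CPM or more, and to 0.226 when only entries with a deposited -log10 q of at least 5 were kept. At gene starts rho was 0.326 (11869 genes), and at the other ends -0.016 (5213 genes). These are descriptions across genes that share the same RNA libraries and 1 region list, and genes are not independent replicates, so no p is given.

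**Figure D4:**
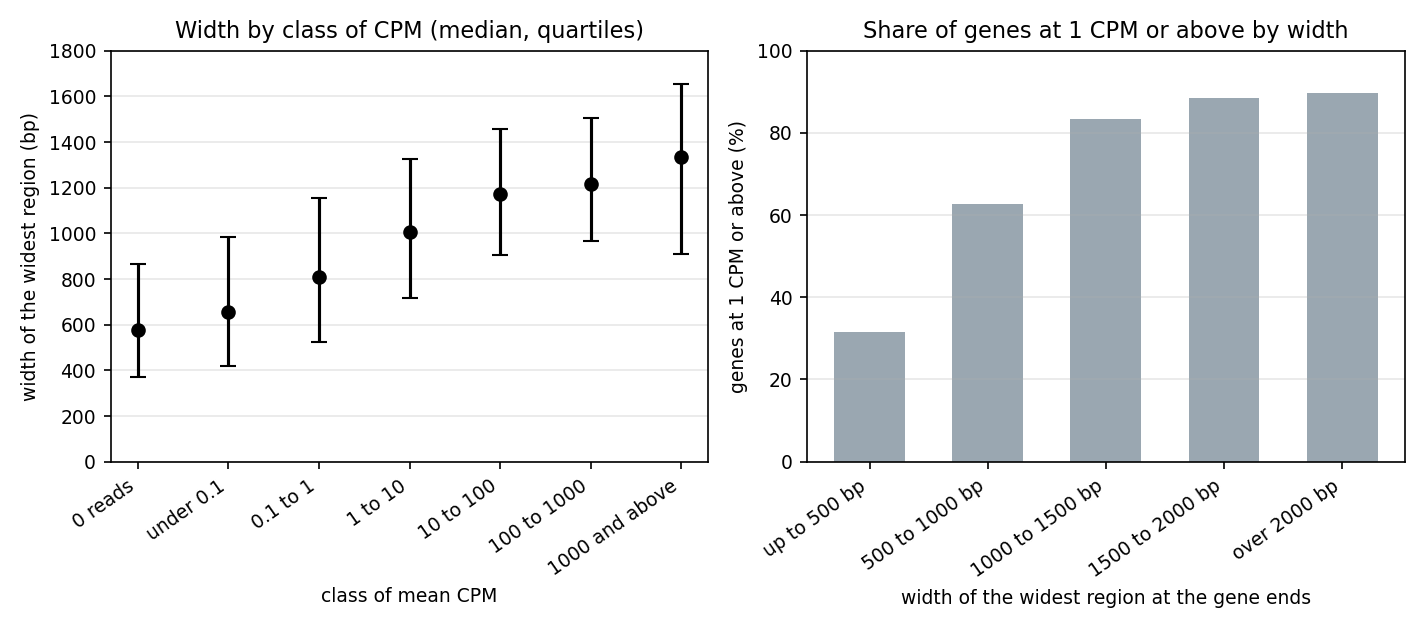
Left, width of the widest region at the gene ends (vertical axis, bp) in classes of mean CPM, as medians with bars from the lower to the upper quartile, from 578 bp with no reads to 1333 bp at 1000 CPM and above. Right, share of genes at 1 CPM or above (vertical axis, %) by the width of the widest region, from 31.5% to 89.7%.

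The number of regions separated silent from active genes more than it ordered active ones. The median level was 0 CPM with no region, 7.68 CPM with 1, 15.1 CPM with 2 and 20.6 CPM with 3. The 519 genes with 4 or more regions had medians of 25.05, 24.7 and 25.2 CPM in the 3 libraries, and 83.4% of them were at 1 CPM or more on average. Over all 31451 genes rho between mean CPM and number was 0.638, but it was 0.104 among genes with a region and a read. It was 0.136 among all genes at 1 CPM or more. Number and width were nearly unrelated, with a rho of 0.094 over the 17987 genes with a region.

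Genes at the extremes of width and number ranged from no reads to 289 CPM. The 12 genes with the widest regions at an end, 2982 to 3835 bp, lay between 0 and 103.8 CPM. Shisa5, a membrane protein linked to p53-dependent cell death, had the widest, 3835 bp at chr9:109038043-109041877, and 64.0 CPM. The chromatin regulators Nsd1, Mll1 and Arid1b, a histone H3 lysine 36 methyltransferase, a lysine 4 methyltransferase and a subunit of the BAF remodelling complex, had 3390, 3040 and 3002 bp and 104, 54.7 and 58.4 CPM. Lphn2, an adhesion receptor gene, had 3737 bp and 27.1 CPM, and Ugt1a1, a bilirubin-conjugating enzyme gene, 3432 bp and 0 reads in a locus that overlaps 8 other genes. The largest number of regions at the ends was 6, reached by 11 genes. They included Samd14 (289 CPM), the kinase gene Akt1 (270 CPM), Cspg4, the NG2 proteoglycan gene (7.75 CPM), and St8sia5, a sialyltransferase gene (6.63 CPM).

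Some well-read genes had no region at their annotated ends. Of 2328 genes at 100 CPM or more with a position, 97 had none, and 73 of these (75.3%) did have a region elsewhere in the gene or within 1 kb of it. Of the 72 with a promoter entry, 47 had a region on that promoter interval, inside the longest annotated span. Fth1 (1566, 1456 and 1575 CPM) had a region of 1282 bp on its promoter at chr19:9982205-9983486, and App, the amyloid precursor gene (868 CPM), one of 1756 bp. Actb, beta-actin (962 CPM), had 1 region within its span. Snrpn, an imprinted splicing protein gene (644 CPM), had a promoter region of 208 bp. On the autosomes 13 genes at 100 CPM or more had no region anywhere in the gene or within 1 kb. They were led by Meg3 (474, 731 and 517 CPM) and Rian (429, 486 and 440 CPM), noncoding RNAs of 1 imprinted locus on chromosome 12. The phosphatase subunit gene Ppp2r5b (436 CPM), the complex III gene Uqcrc1 (282 CPM), the synaptic gene Nrxn2 (261 CPM) and the splicing factor gene Srsf1 (119 CPM) were also among them.

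Chromosome X stood apart in the region list. It held 569 merged regions for 2025 genes with a position, 0.281 per gene, against 4.29 to 8.39 per gene on the autosomes. Of its 473 genes at 1 CPM or more, 66.4% had a region, against 87.1% to 95.2% on the autosomes. X-linked genes lay below the whole set in every class up to 1000 CPM, with 45.3% at 1 to 10 CPM and 77.8% at 100 to 1000 CPM. Of the 97 genes at 100 CPM or more with no region within 1 kb of their annotated ends, 19 were X-linked, among them Tmsb4x, an actin-binding thymosin (1072, 1023 and 1088 CPM), Map7d2, a microtubule-binding protein (785 CPM), Fgf13, a sodium channel partner (672 CPM), and Pcsk1n, a proprotein convertase inhibitor (490 CPM). Away from those ends, Tmsb4x had 1 region on a promoter interval (186 bp), Fgf13 had 2 such regions, and Pcsk1n had 1 inside the gene. L1cam, the axonal adhesion molecule on X (475 CPM), did have a region, of 883 bp at its start. The origin of the gap was not tested. On the autosomes alone, 92.6% of genes at 1 CPM or more had a region.

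Genes with no reads could still have wide accessible ends. Of 10388 such genes with a position, 1785 (17.2%) had a region, among them 15.0% of those with no other gene end within 2 kb and 29.9% of the rest. Away from other gene ends, the widest were at the pseudogene Gsdmcl-ps (2459 bp), the microRNA gene Mir193b (1990 bp), the Ras-association gene Rassf10 (1864 bp) and Sfta2, a surfactant-associated gene (1760 bp). Mir22 (1732 bp) and Mir210 (1681 bp) were others, and the locus of Mir22 overlaps 1 other gene. Small RNAs such as these are not captured as mature molecules by poly(A) selection, so 0 reads is no sign that they were silent. Miox, an inositol oxygenase gene of the kidney, had 2 regions, the wider of 1725 bp. Npbwr1, a neuropeptide receptor gene, had one of 1549 bp.

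The sequences of 6 promoters are shown because they span these cases: 2 leading genes with a region at the start, 2 well-read genes whose region lies only on the promoter, and 2 genes without reads that have a wide region. Each is the 250 bases before a RefSeq start (GRCm38.p6), 5′ to 3′ on the strand of the gene. Where a gene has several entries it is the one under the widest region. Capitals mark the 3 motifs searched, on either strand. One, known as the TATA box, was the core promoter element spelled TATAAA. Another, bound by the factor NF-Y, was the CCAAT box, searched by the letters of its name. The last was the Sp-factor site GGGCGG, also known as the GC box. None of them contains another. The intervals are chr13:99516603-99516852 (minus strand) for Map1b, chr8:95677513-95677762 (plus) for Ndrg4, chr19:9982396-9982645 (plus) for Fth1, chrX:167209219-167209468 (minus) for Tmsb4x, chr17:35649458-35649707 (plus) for Sfta2 and chr15:89334223-89334472 (plus) for Miox.
Map1b: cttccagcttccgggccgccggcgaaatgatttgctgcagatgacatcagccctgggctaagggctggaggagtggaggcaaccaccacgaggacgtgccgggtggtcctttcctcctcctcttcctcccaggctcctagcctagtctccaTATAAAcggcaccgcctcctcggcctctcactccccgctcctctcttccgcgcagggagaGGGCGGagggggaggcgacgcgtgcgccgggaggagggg
Ndrg4: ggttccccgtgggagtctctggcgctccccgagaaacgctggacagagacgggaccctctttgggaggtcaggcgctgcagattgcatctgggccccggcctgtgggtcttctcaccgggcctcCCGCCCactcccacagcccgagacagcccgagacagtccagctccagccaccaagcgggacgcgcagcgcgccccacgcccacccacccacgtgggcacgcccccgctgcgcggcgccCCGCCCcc
Fth1: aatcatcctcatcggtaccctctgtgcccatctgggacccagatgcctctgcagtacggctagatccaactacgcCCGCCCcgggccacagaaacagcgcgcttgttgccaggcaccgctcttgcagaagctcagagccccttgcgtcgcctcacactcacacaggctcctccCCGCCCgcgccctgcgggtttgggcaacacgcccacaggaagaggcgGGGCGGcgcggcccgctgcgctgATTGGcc
Tmsb4x: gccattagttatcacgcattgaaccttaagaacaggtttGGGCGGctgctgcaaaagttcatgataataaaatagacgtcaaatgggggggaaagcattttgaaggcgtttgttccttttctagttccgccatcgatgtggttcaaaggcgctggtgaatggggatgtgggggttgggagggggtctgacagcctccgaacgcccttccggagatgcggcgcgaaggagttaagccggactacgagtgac
Sfta2: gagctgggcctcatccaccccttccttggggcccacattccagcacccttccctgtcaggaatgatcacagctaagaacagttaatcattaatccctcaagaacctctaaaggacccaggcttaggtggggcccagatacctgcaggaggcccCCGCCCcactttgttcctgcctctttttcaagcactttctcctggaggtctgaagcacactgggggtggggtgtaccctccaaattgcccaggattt
Miox: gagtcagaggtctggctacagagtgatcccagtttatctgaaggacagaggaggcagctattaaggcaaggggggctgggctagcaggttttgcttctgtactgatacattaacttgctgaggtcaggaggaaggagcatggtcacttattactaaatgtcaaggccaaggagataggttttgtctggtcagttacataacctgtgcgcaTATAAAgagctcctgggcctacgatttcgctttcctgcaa

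The ratio of observed to expected CpG dinucleotides over 300 bases, from 250 before to 50 after the start, separates CpG islands from other promoters. It was 0.711 for Map1b, 0.775 for Ndrg4, 0.827 for Fth1 and 0.988 for Tmsb4x, and 0.045 for Sfta2 and 0.335 for Miox. Map1b showed 1 TATA box and 1 GC box, Ndrg4 2 GC boxes, and Fth1 3 GC boxes and 1 CCAAT box. Tmsb4x and Sfta2 showed 1 GC box each, and Miox 1 TATA box. A match describes the letters and not a bound site. Among all 32851 promoters of the table, 13.6% held a TATA box, 37.4% a CCAAT box and 35.7% a GC box in the same 300 bases.

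Promoters of genes with a region were richer in CpG and GC boxes. Among 13148 genes with a region and a promoter entry, the median CpG ratio was 0.715, the median GC content 60.0%, and 59.2% held a GC box and 7.81% a TATA box. Among 5687 genes without a region the ratio was 0.180, GC content 45.3%, and 12.2% held a GC box and 25.1% a TATA box. The CCAAT box differed less, at 37.5% and 41.2%. Level and CpG content both went with presence. With a ratio under 0.3, presence went from 13.3% of genes with no reads to 67.9% at 1 to 10 CPM and 82.1% at 100 to 1000 CPM. With a ratio of 0.6 or more it was already 50.6% with no reads and reached 97.4% at 100 to 1000 CPM. GC content moved with presence too, and its part in these shares was not tested.

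**Figure D5:**
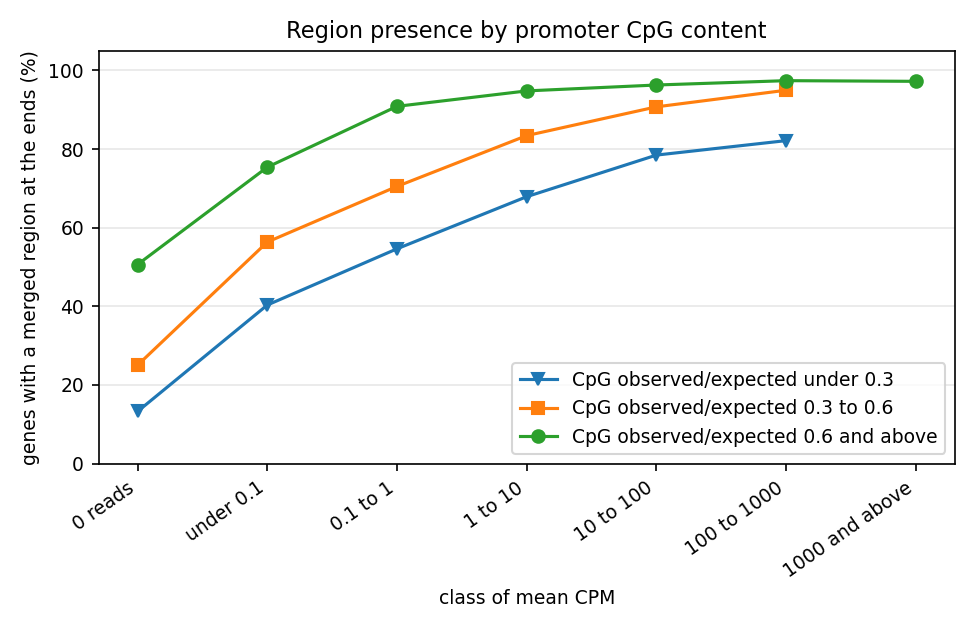
Share of genes with a merged region at the ends (vertical axis, %) in classes of mean CPM (horizontal axis), for promoters with a ratio of observed to expected CpG under 0.3, of 0.3 to 0.6 and of 0.6 or more. Points with under 20 genes are not drawn; the lowest line runs from 13.3% of genes with no reads to 82.1% at 100 to 1000 CPM, and the highest from 50.6% to 97.4% over the same classes.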

How the data were processed

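RNA-seq counts of 3 vehicle libraries and 1 list of accessible regions from combined vehicle ATAC replicates were used. Poly(A) RNA of integrity above 8 went into directional libraries read as 75 bp pairs, and 50000 nuclei and 11 PCR cycles were used for ATAC, per the labels' protocols. The authors deposited whole-number read counts per gene symbol. The genome build mm10 and the tools FastQC 0.10.1, STAR 2.7.0, R 3.5.0, limma 3.38.3 and edgeR 3.24.3 are named, without their roles, per the submitters' processing notes. Read counter, strand setting and peak caller were each not given in the sources used here, so reads of overlapping or antisense genes cannot be told apart. The region list, deposited by the authors, carries a score, a fold enrichment ratio and a q-value on a −log10 scale for each entry, as the authors' caller wrote them. Of its entries, 76.4% had q under 0.05. The number of ATAC reads is not known.

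The rows that name no gene held 18.9%, 19.4% and 19.7% of reads and stayed out of library sizes. CPM were computed per library and averaged over 3. Spread was estimated with edgeR 4.0.16 (TMM, filterByExpr, an intercept only), and DESeq2 1.42.0 size factors served as an alternative. Entries that overlapped were merged. Of the 44345 genes, 31451 matched the RefSeq table (1939 through synonyms), and these held 97.0% of reads. Promoter sequences and strands were from RefSeq for 18835 genes. The linking of regions to genes was tested on simulated data and returned the planted numbers and widths. With 1 group, no test was made and no p is given. Python 3.11.15 was used.

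Named genes were the 25 with most reads, the 4 leading members of each of 37 lists, the 12 with most reads and no region, the 12 with the widest region, the 10 unread genes with the widest region and no other gene end within 2 kb, the 10 of highest CV at 10 CPM or more, and 10 with most regions. Of the 25, 22 are drawn and the others are not reported here. Provisional symbols were passed over in the last 5 sets. Other list members named, and the 13 autosomal genes with no region anywhere, were chosen after their values were seen. The members and lists were chosen with earlier results of these data known.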

Additional observations from a re-analysis of the deposited data

How the results depend on the processing

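No result changed direction. The 25 leading genes took 8.06% to 8.38% of reads with 1 library left out and 7.41% with mitochondrial genes left out of ranking and total, when 21 of the 25 stayed; 24 stayed without replicate 1. Of 28 list sums, each under up to 6 settings, 155 values moved by less than 1 SD and 12 by more, all by a factor of 1.022 when mitochondrial genes were left out. The coefficient of variation was 4.21% to 4.72% with 1 library left out. Against 91.7% of genes at 1 CPM or more with a region, the share was 88.4% with windows of 500 bp, 94.9% with 2500 bp, 83.5% with a -log10 q of at least 5, 91.4% with an overlap of 50 bp, 88.9% for genes with no other end within 2 kb, 91.9% on promoter intervals and 57.2% with no level filter. Added after seeing the data, it was 92.6% on autosomes, 92.3% for protein-coding genes, 89.7% at starts and 96.8% over the whole gene and 1 kb beyond. For width, in the same order, rho was 0.329, 0.386, 0.226, 0.352 (overlap of 50 bp), 0.426 (isolated genes), 0.302 (promoters) and 0.189 (1 CPM or more), and, added, 0.366, 0.321, 0.326 (starts) and 0.388 (exactly 1 region); it was 0.340 to 0.348 with 1 library left out. For number, rho was 0.648, 0.635, 0.702, 0.638 (overlap of 50 bp), 0.643 (isolated genes), 0.689 and 0.136, and, added, 0.621, 0.525, 0.721 (whole gene) and 0.104 (genes with a region); it was 0.636 to 0.637 with 1 library left out. The median CpG ratio of promoters with a region was 0.772 at 1 CPM or more. The settings differ in the genes, entries or windows they use, and the causes of these shifts were not tested. Scaling by TMM or DESeq2 size factors, joining entries within 100 bp and counting the bases inside windows moved no result by over 1 SD between libraries. For width, against a rho of 0.354, joining gave 0.345 and bases inside windows 0.361. That SD comes from the RNA libraries set against 1 fixed region list, so it does not measure error in the regions. CPM per kb of coding sequence and the restriction to genes with a protein entry were not run, since no protein lengths were used here. No paired analysis was possible because the RNA libraries form 1 group, the accessible regions are 1 combined list, and no test was made. ATAC depth is unknown, so a gene without a region may lie under the list's detection limit.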

Other observations

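Among genes with no reads, presence of a region differed by class of gene in the RefSeq annotation. A region lay at the ends of 486 of 3704 protein-coding genes (13.1%) and 339 of 2905 pseudogenes (11.7%). It lay at 311 of 888 long noncoding RNA genes, 303 of 874 small nucleolar RNA genes (34.7%) and 172 of 545 microRNA genes (31.6%), and at 12 of 278 antigen receptor variable segments (4.32%). Of all genes with no reads and a region, 688 overlapped another annotated gene, and the part of that overlap in these shares was not tested.

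Hox genes, which encode position along the body axis, were read in part. Of 38 Hox genes 28 were at 1 CPM or more in all libraries, against 13857 of 44345 over all genes. A region lay at an end of 35 (92.1%), against 57.2% of all genes with a position and 91.7% of those at 1 CPM or more. The members with most reads were Hoxa9 (50.3, 53.0 and 51.6 CPM), Hoxa7 (42.2 CPM on average), Hoxd8 (31.2 CPM) and Hoxb9 (29.0 CPM). Of 93 potassium channel genes 70 were at 1 CPM or more in all libraries, to be read against the same share over all genes. The potassium channel genes were led by Kcnab2, an auxiliary subunit (1294 CPM), and Kcna1, an axonal delayed rectifier (595 CPM). Kcnd1, on chromosome X (282 CPM), had no region at its ends.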
